A study of Homo sapiens with 6 samples.

Results

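The genes of the activator protein 1 (AP-1) transcription factors were followed in the established human line NCI-H1299, derived from a non-small cell lung carcinoma, after treatment with norepinephrine (NE). The members were the rows of the deposited table whose gene name was FOS, FOSB, FOSL1, FOSL2, JUN, JUNB, JUND, ATF3, BATF3 or MAFF. All 10 were present among the 26025 rows. RNA was sequenced from 3 Ctrl libraries and 3 libraries of cells that received 10 µM NE for 48 h, and the cells of both groups had first been kept for 8 to 12 h in DMEM and were then held in RPMI-1640 with 2% FBS. The labels name the vehicle of the Ctrl group as DMSO in the titles and as PBS in the protocol. They describe 1 cell line, 1 dose and 1 time, and they do not say whether the replicates were separate cultures, so the p-values measure the spread between these libraries.

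AP-1 is a family of dimers. Proteins of the FOS family cannot pair with themselves and bind DNA together with a JUN protein, whereas JUN proteins also pair with each other and with ATF and BATF proteins. The dimers recognise the TPA response element (TRE, TGA(C/G)TCA) and, with ATF partners, the cAMP response element (CRE, TGACGTCA). FOS and JUN are classical immediate early genes, FOSL1 and FOSL2 encode FRA-1 and FRA-2, which lack the transactivation domain of FOS, and FRA-1 is known for its high level in invasive carcinoma cells. NE acts through adrenergic receptors, and the β receptors raise cAMP and activate PKA and CREB, the factor that binds the CRE.

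The libraries held between 16852751 and 17979206 reads on genes. Ctrl replicate 3 stood apart, where 7305 genes had no read, while 4829 and 4833 genes had none in the other Ctrl libraries and 3954 to 4416 in the NE libraries. The epithelial and mesenchymal markers fixed for the line, KRT8, KRT18, VIM and CDH2, were all counted, between 964.5 for CDH2 and 78252 for VIM. Markers of other cells were low, with 16.5 to 36.6 normalized counts for PECAM1, 7.75 to 27.2 for COL1A1, 0 to 9.80 for CDH5 and 0.980 to 8.89 for PDGFRA. PTPRC and SFTPC had no row among those used here.

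Because CREB binds the CRE, the sequence before the start site was searched for this element, and it is shown from RefSeq (GRCh38.p14) for 2 genes that rose and 2 that were lower in NE-treated cells. Each is given 5′ to 3′ on the strand of the gene, from 250 bases before the RefSeq start up to the next exon base of that gene in GENCODE v44, and capitals mark matches to the CRE (TGACGTCA), to its core letters (TGACG), or to the CRE-like letters TGACATCA, on either strand. FOS is on chr14:75278578-75278825, plus strand, FOSL2 on chr2:28392608-28392801, plus strand, JUN on chr1:58784049-58784297, minus strand, and JUND on chr19:18281623-18281872, minus strand. The stretches of FOS, JUN and JUND lie outside the gene in GENCODE v44, and that of FOSL2 lies inside the gene, between exons.
FOS: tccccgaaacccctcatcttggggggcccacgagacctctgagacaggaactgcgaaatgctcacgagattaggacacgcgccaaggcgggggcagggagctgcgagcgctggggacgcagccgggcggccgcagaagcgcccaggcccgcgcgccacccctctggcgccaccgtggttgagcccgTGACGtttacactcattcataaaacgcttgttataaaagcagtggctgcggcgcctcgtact
FOSL2: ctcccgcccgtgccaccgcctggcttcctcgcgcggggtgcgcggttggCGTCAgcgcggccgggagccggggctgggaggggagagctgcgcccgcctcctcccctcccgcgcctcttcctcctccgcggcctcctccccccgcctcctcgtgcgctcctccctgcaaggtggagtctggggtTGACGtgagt
JUN: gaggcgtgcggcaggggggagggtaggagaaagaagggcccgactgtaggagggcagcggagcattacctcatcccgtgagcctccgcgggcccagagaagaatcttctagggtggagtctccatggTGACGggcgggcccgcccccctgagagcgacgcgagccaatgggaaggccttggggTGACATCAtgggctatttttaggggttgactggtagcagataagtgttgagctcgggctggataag
JUND: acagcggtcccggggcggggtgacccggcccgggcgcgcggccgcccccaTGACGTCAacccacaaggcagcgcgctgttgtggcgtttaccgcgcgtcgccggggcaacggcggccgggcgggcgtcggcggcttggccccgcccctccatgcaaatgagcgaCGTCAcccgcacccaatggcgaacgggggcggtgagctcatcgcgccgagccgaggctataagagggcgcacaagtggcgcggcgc

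Positions of matches are counted from the RefSeq start site to the first base of the match. The core match of FOS began at -64. FOSL2 held core matches at -201 and -66 and, after its start, 1 TRE match (TGACTCA) at 4. In JUN a core match began at -123 and the CRE-like match at -67. JUND held a complete CRE at -200 and a core match at -86. For JUND the log2 fold change with NE was -0.54, and 0.15 after a correction for exon GC content and length. Windows from 250 bases before to 50 bases after the start were found for 8 of the 10 members. FOSL1 and BATF3, which were both lower with NE, had no window and were not searched. There were 10 windows because ATF3 and MAFF each had a pair of RefSeq starts. In GENCODE v44 the ATF3 window at chr1:212614768-212615067 and the pair for MAFF lay wholly inside their genes. The core, which is also counted inside a complete CRE, was found in 7 of the 8 genes and in 24.5% of 34796 promoters of the same length. The complete CRE was found in 2 genes, JUND and MAFF, and in 1.84% of promoters, and the CRE-like letters in 2 genes, JUN and ATF3, and in 2.6%. The TRE was searched with any middle base, as TGANTCA, which is wider than the element. This pattern was found in 1 gene, against 7.73% of promoters. The CArG box, the element bound by SRF, was found in 0 genes, against 1.3%. Elements more than 250 bases before the start site lay outside the windows and were not searched. Among the genes searched, those that rose and those that fell both held the core letters.

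With NE, members changed in both directions. FOSL2 and FOS were significantly higher with NE, and FOSL1, JUN, BATF3 and MAFF were significantly lower. A call needed a Benjamini-Hochberg adjusted p below 0.05 and a log2 fold change of 1 or more in size. The test was limma on log2(value + 1), run on the 15013 genes whose mean reached 10 normalized counts, and all 10 members reached it. Values are normalized counts, that is, reads on the gene divided by 1 size factor per library. Thus 2 of 10 members were higher, where 7.47% of all tested genes were, and 4 of 10 were lower, where 6.55% were. With the adjusted p alone JUNB and JUND joined the lower members, giving 2 higher and 6 lower, and the shares of all tested genes were 24.6% higher and 25.5% lower. FOSB and ATF3 passed neither. The NE libraries lay above every Ctrl library for 2 members and below every Ctrl library for 6, against 29.7% and 28.9% of all tested genes. The median log2 fold change was -0.70 over the members and 0.01 over all tested genes. After each library's trend on exon GC content and length was removed, these medians were -0.03 and -0.05. As the RNA is from whole cultures, a change in the number of cells that express a gene and a change in its RNA per cell cannot be told apart.

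Among the FOS family, FOSL1 (FRA-1, ENSG00000175592, chr11:65892049-65900573, minus strand) was the most abundant member and fell most. Its normalized counts were 14279, 14260 and 7290 in the Ctrl libraries and 1703, 2242 and 2049 in the NE libraries. All NE libraries lay far below the lowest Ctrl library, although Ctrl replicate 3 was at 0.511 of the mean of the other Ctrl libraries. NE-treated cells had a mean of 1998 ± 273 against 11943 ± 4030 in Ctrl (SD, n = 3 each), which is 5.98-fold lower. The log2 fold change was -2.52 ± 0.242 (SE, limma adjusted p = 0.000121). By this value FOSL1 ranked 20 among the falls of the 15013 tested genes. The log2 fold change was -2.85 without Ctrl replicate 3 and -1.89 after the GC and length correction (adjusted p = 1.42e-05 from limma).

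FOSL2 (FRA-2, ENSG00000075426, chr2:28392448-28417317, plus strand) changed in the opposite direction. Its normalized counts were 1443, 1362 and 990.7 in Ctrl and 3588, 3294 and 3164 in NE libraries, so that every NE library lay well above every Ctrl library. The mean rose from 1265 ± 241 to 3349 ± 217 (SD, n = 3 each), 2.65-fold, with a log2 fold change of 1.42 ± 0.148 (SE, limma adjusted p = 0.00017). The gene kept a similar rise, 1.25, without Ctrl replicate 3.

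FOS (ENSG00000170345, chr14:75278826-75282230, plus strand), the immediate early gene that names the family, was low in every library. Its normalized counts were 81.7, 57.0 and 61.7 in Ctrl and 124.5, 185.0 and 143.5 with NE. The groups did not overlap, and the mean rose 2.26-fold, from 66.8 ± 13.1 to 151.0 ± 30.9 (SD, n = 3 each). The log2 fold change was 1.16 ± 0.224 (SE, limma adjusted p = 0.00259). FOSB (ENSG00000125740, chr19:45467995-45475179, plus strand), the other member with a transactivation domain, had 96.3, 87.1 and 79.4 normalized counts in Ctrl and 98.8, 87.2 and 117.0 with NE. Its groups overlapped, and the log2 fold change of 0.20 had an interval of -0.24 to 0.64 (95%, adjusted p = 0.424 from limma). After the GC and length correction FOSB passed the adjusted p at a log2 fold change of 0.64 (adjusted p = 0.0288 from limma), but not the fold criterion, and with the replicate number as a block the adjusted p of the corrected value was 0.0532.

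JUN family genes encode the partners that FOS proteins require. JUN (ENSG00000177606, chr1:58776845-58784048, minus strand) had 2441, 2217 and 2081 normalized counts in Ctrl and 558.3, 529.8 and 499.8 in NE libraries. The replicates were close within each group and the groups were far apart. The mean fell 4.24-fold, from 2247 ± 182 to 529 ± 29.2 (SD, n = 3 each), with a log2 fold change of -2.08 ± 0.111 (SE, limma adjusted p = 6.35e-06), which ranked 46 among the falls of all tested genes.

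JUNB (ENSG00000171223, chr19:12791486-12793315, plus strand), which can act against JUN at some promoters, had 1311, 1290 and 1060 normalized counts in Ctrl and 650.2, 652.8 and 697.2 in NE libraries. The groups were apart, and the Ctrl mean was 1.83-fold above the NE mean, with a log2 fold change of -0.87 ± 0.121 (SE, limma adjusted p = 0.000561). JUND (ENSG00000130522, chr19:18279694-18281622, minus strand), the member known for steady expression, had 1833, 1854 and 1563 in Ctrl and 1194, 1232 and 1174 with NE. This difference was smaller, 1.46-fold, with a log2 fold change of -0.54 ± 0.108 (SE, limma adjusted p = 0.00314). Neither gene reached the fold criterion. JUNB and JUND have the highest exon GC content of the 10 members, 64.9% and 69.9%, against 48.0% to 60.1% for the others. After the GC and length correction the log2 fold changes were -0.17 for JUNB (adjusted p = 0.229 from limma) and 0.15 for JUND (adjusted p = 0.329), so the call without the fold criterion was lost for both and the direction of JUND turned. JUNB shares 259 exon bases with HOOK2 on the opposite strand, and whether the counting used strand is not given in the sources used here. HOOK2 itself had 254 to 317 normalized counts in Ctrl and 168 to 183 in NE libraries.

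The remaining members are partners and relatives outside both families. BATF3 (ENSG00000123685, chr1:212686417-212699840, minus strand), which pairs with JUN and is best known in dendritic cells, had 209.4, 219.8 and 112.7 normalized counts in Ctrl and 36.6, 93.0 and 59.4 in NE libraries. The lowest Ctrl library, replicate 3, was at 0.525 of the mean of the other Ctrl libraries, and NE replicate 2, the highest NE library, came next below it. The mean fell 2.87-fold, from 181 ± 59.1 to 63.0 ± 28.4 (SD, n = 3 each), with a log2 fold change of -1.54 ± 0.363 (SE, limma adjusted p = 0.00672). This was the widest standard error among the members.

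MAFF (ENSG00000185022, chr22:38200767-38216507, plus strand), a small MAF protein that lacks a transactivation domain, had 482.8, 468.7 and 431.2 normalized counts in Ctrl and 168.0, 178.2 and 168.1 with NE. Its Ctrl replicates varied least among the members, with a coefficient of variation of 5.79%. The mean fell 2.69-fold, from 461 ± 26.7 to 171 ± 5.86 (SD, n = 3 each), with a log2 fold change of -1.42 ± 0.129 (SE, limma adjusted p = 9.91e-05). After the GC and length correction it was -0.90 (adjusted p = 0.000529 from limma), under the fold criterion. MAFF shares 326 exon bases with PLA2G6 on the opposite strand, which had 117 to 188 normalized counts in Ctrl and 90.1 to 119 in NE libraries.

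ATF3 (ENSG00000162772, chr1:212565334-212620777, plus strand), a factor induced by many kinds of stress, had 126.7, 124.4 and 161.7 normalized counts in Ctrl and 135.4, 96.9 and 156.3 with NE. The highest and the lowest library in this gene were Ctrl replicate 3 and NE replicate 2. The log2 fold change was -0.10, with a 95% interval of -0.59 to 0.39 (adjusted p = 0.711 from limma).

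**Figure D1:**
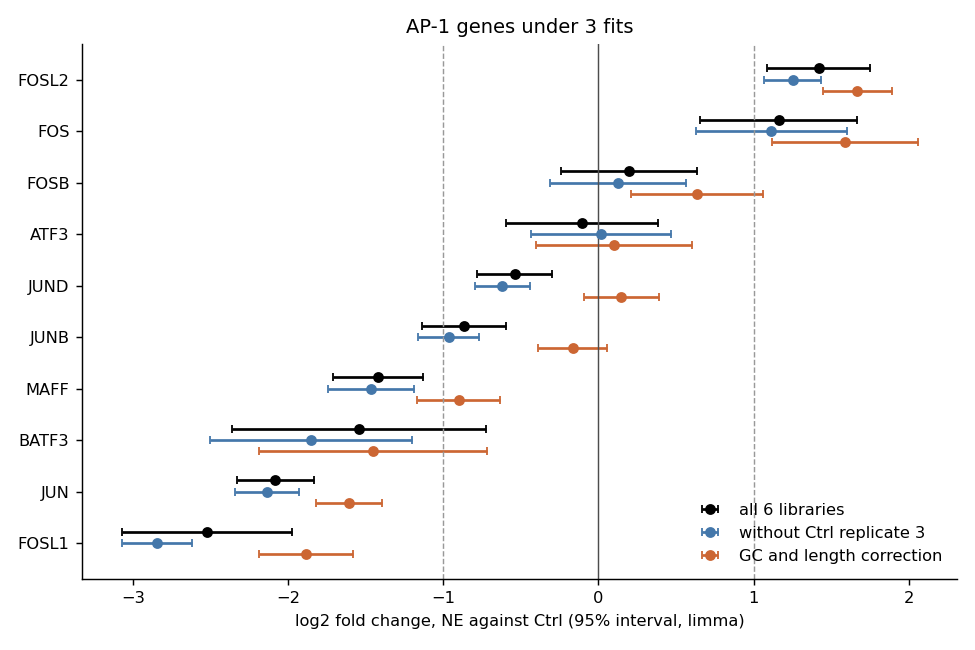
Log2 fold change of NE against Ctrl (x axis) of each AP-1 gene with its 95% interval, from limma with all 6 libraries, without Ctrl replicate 3, and after correction for exon GC content and length. Dashed lines mark a log2 fold change of 1 in either direction. FOSL1, JUN and BATF3 stay below -1 and FOSL2 and FOS above 1 in all 3 fits, while JUND moves from -0.54 to 0.15 and MAFF from -1.42 to -0.90 with the correction.

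Levels of different genes were compared per length, as FPKM recomputed from the recovered reads and the merged exons. In Ctrl cells FOSL1 was the highest, at 350 ± 113 FPKM (SD, n = 3), followed by JUND at 50.3, JUNB at 37.0, JUN at 34.4, FOSL2 at 9.79, MAFF at 4.56, BATF3 at 3.89, ATF3 at 1.92, FOS at 1.16 and FOSB at 0.875. The ranges of JUN and JUNB overlapped in this order, as did those of BATF3 and MAFF. In NE-treated cells FOSL1 was still the highest, at 64.8 ± 10.7 FPKM, and JUND followed at 38.0. FOSL2 stood next at 28.5, above JUNB at 22.3 and JUN at 8.91. The low genes were FOS at 2.90, ATF3 at 1.98, MAFF at 1.87, BATF3 at 1.51 and FOSB at 1.11 FPKM, and each of these overlapped its neighbour in the order. FOSL2 thus passed from below JUN and JUNB in every Ctrl library to above both in every NE library.

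The summed FPKM of the 10 genes was 569, 563 and 350 in Ctrl and 156, 181 and 179 in NE libraries. All NE sums were below all Ctrl sums, and the mean was 2.87-fold lower (494 ± 125 against 172 ± 14.0, SD, n = 3 each, exact two-sided permutation p = 0.1, the smallest that 3 against 3 libraries can give). For the FOS family alone the sum was 362 ± 115 FPKM in Ctrl and 97.4 ± 10.7 in NE-treated cells, 3.72-fold lower. For the JUN family it was 122 ± 9.03 and 69.2 ± 2.97, 1.76-fold lower. The exact permutation p was 0.1 for both families. JUNB and JUND, which make up most of the JUN family sum, no longer passed the adjusted p after the GC and length correction, at -0.17 and 0.15 on the log2 scale, and the sums carry no such correction. FOSL1 makes up most of the FOS family sum, so this sum follows FOSL1.

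FOSL1 made up a smaller and FOSL2 a larger part of the FOS family in every NE library than in any Ctrl library. The share of FOSL1 was 96.9%, 97.1% and 95.7% of the FOS family FPKM in the Ctrl libraries and 61.8%, 69.0% and 68.1% in the NE libraries, a difference of -30.3 percentage points. FOSL2 made up 2.58%, 2.44% and 3.43% in Ctrl and 34.3%, 26.7% and 27.7% with NE, a difference of 26.8 points. FOS was 0.346% ± 0.126 in Ctrl and 2.96% ± 0.366 in NE-treated cells, and FOSB 0.259% ± 0.0828 and 1.15% ± 0.213 (SD, n = 3 each). Groups did not overlap for any of these 4 shares (exact two-sided permutation p = 0.1 each, the smallest possible). The family sum by which each share is divided follows FOSL1. The FOSB share was thus higher although its normalized counts overlapped between the groups (log2 fold change 0.20, limma adjusted p = 0.424). Ctrl replicate 3, in which both FOSL1 and FOSL2 were lowest among the Ctrl libraries, had the lowest FOSL1 and the highest FOSL2 share of that group.

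Within the JUN family the share of JUN was lower and that of JUND higher with NE. JUN made up 28.8%, 26.9% and 29.2% of the JUN family FPKM in Ctrl and 13.7%, 12.8% and 12.2% in NE libraries, a difference of -15.4 points. JUND made up 40.6%, 42.2% and 41.3% in Ctrl and 54.9%, 55.9% and 54.0% with NE, a difference of 13.6 points. The share of JUNB differed by 1.82 points, from 30.4% ± 0.758 to 32.2% ± 1.40 (SD, n = 3 each). The exact two-sided permutation p was 0.1 for all 3 shares. Shares add up to the whole, so that they are not independent of each other.

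**Figure D2:**
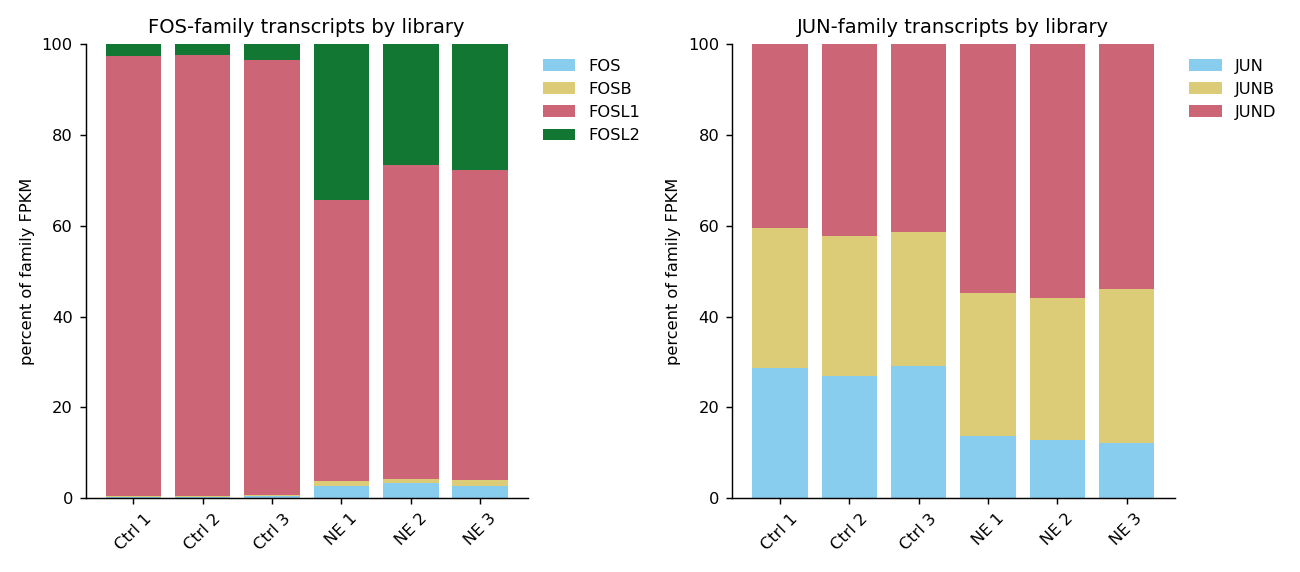
Percent of the summed FPKM (y axis) of the FOS family (left) and the JUN family (right) that each gene made up, with 1 bar per library. FOSL2 takes 2.44% to 3.43% of the FOS family in the Ctrl bars and 26.7% to 34.3% in the NE bars, and JUN takes at least 26.9% of the JUN family in the Ctrl bars and at most 13.7% in the NE bars.

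The ratio of FOSL1 to FOSL2 was 37.6, 39.7 and 27.9 in Ctrl and 1.80, 2.58 and 2.46 in NE libraries, on the FPKM scale. The geometric means were 34.7 and 2.25, a log2 difference of -3.94. The ratio of FOSL2 to JUN moved the other way, from 0.299, 0.311 and 0.241 to 3.25, 3.15 and 3.20. In every Ctrl library there was thus less FOSL2 than JUN per length, and in every NE library more. The ratio of FOSL1 to JUN, the 2 members that fell most, was 11.2, 12.4 and 6.73 in Ctrl and 5.86, 8.13 and 7.87 with NE, and its groups overlapped. The exact two-sided permutation p was 0.3 for FOSL1 to JUN and 0.1 for the other 2 ratios.

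Genes that act with, on or below AP-1 were taken from 5 hand-written lists. Their counts stand against the shares of all tested genes, which were 7.47% higher and 6.55% lower with the fold criterion, and 24.6% higher and 25.5% lower with the adjusted p alone. Of 24 other bZIP partners, the ATF, CEBP, MAF, NFE2 and BACH genes, 20 were tested. In this list 3 were higher and 0 lower, 4 and 4 with the adjusted p alone, and the median log2 fold change was -0.25. BACH2, a repressor that pairs with small MAF proteins, rose from 24.1, 35.3 and 12.7 normalized counts in Ctrl to 105.7, 111.4 and 85.9 with NE (log2 fold change 2.13, adjusted p = 0.00131 from limma). NFE2L2, the oxidative stress factor NRF2 and also a partner of small MAF proteins such as MAFF, rose from 1178 ± 170 to 2976 ± 99.9 (1.35, adjusted p = 9.85e-05). ATF2, a JUN partner at the CRE, rose from 437 ± 91.4 to 901 ± 69.5 (1.06, adjusted p = 0.000737). After the GC and length correction BACH2 alone of these 3 kept the call, with 0.80 for NFE2L2 and 0.38 for ATF2, and the median of the list was 0.27. Of the most abundant partners, ATF4 had a log2 fold change of -0.62, NFE2L1 of 0.01 and CEBPG of 0.65. After the correction these were -0.04 for ATF4, 0.43 for NFE2L1, which then passed the adjusted p alone (0.00946 from limma), and 0.27 for CEBPG.

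MAP kinase cascades phosphorylate FOS and JUN proteins and the factors that switch on their genes. Of 25 genes listed, 24 were tested, with 0 higher and 2 lower, 8 and 8 with the adjusted p alone, and a median log2 fold change of -0.01, which was -0.14 after the correction. The 2 lower genes of 24 are near the share of all tested genes. MAP2K3, a kinase of the p38 branch, fell from 3194 ± 458 to 1416 ± 51.0 (log2 fold change -1.16, adjusted p = 0.000182 from limma), and MAPK12, a p38 kinase, from 663 ± 87.3 to 329 ± 30.0 (-1.01, adjusted p = 0.000605). Both were under the fold criterion after the GC and length correction, at -0.57 and -0.51. Among 13 transcription inputs of FOS and JUN, such as SRF, the ELK genes and CREB1, 1 was higher and 0 lower, 5 and 2 with the adjusted p alone. The median of 0.27 turned to -0.03 after the correction. The called gene was TCF7L2, a factor of the WNT pathway, at 1.09 (adjusted p = 0.000288 from limma) and 0.93 after the correction. Of 11 genes for the turnover of FOS and JUN proteins, 9 were tested and 0 were called with the fold criterion, while 5 were higher and 0 lower by the adjusted p alone. Their median was 0.38, and 0.06 after the correction.

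Genes described as AP-1 targets moved in both directions. Of 25 listed, 21 were tested, with 3 higher and 10 lower, 5 and 11 with the adjusted p alone, and a median log2 fold change of -0.81. PLAU, the urokinase plasminogen activator, fell from 13179 ± 489 to 3891 ± 384 normalized counts (log2 fold change -1.76, adjusted p = 1.3e-05 from limma), and MMP9, a gelatinase, from 80.5 ± 18.4 to 11.1 ± 4.29 (-2.79, adjusted p = 0.000398). Both genes act in the breakdown of the extracellular matrix. KRT18, a keratin and also a marker of the line, had a log2 fold change of -1.62, and HMOX1, the heme oxygenase, of -1.37. MT2A, a metallothionein and the most abundant gene of the list, was at -1.08, and EZR, which encodes the membrane linker ezrin, at -0.23 (adjusted p = 0.0956).

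In contrast, 3 genes for secreted factors on the same list were higher with NE. CXCL8, a chemokine, rose from 12.4 ± 6.22 to 136 ± 5.78 normalized counts (log2 fold change 3.44, adjusted p = 0.000129 from limma). IL11, a cytokine of the IL-6 family, rose from 49.9 ± 8.49 to 136 ± 21.8 (1.43, adjusted p = 0.000895), and VEGFA, the vascular growth factor, from 579 ± 99.9 to 1321 ± 210 (1.19, adjusted p = 0.000559). After the GC and length correction the list held 3 higher and 7 lower genes with a median of -0.42. HMOX1 and MT2A were then at -0.76 and -0.63, under the fold criterion, while CXCL8 was at 2.77, IL11 at 2.02 and MMP9 at -2.11. Whether an AP-1 protein acts on these genes in NCI-H1299 was not measured.

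**Figure D3:**
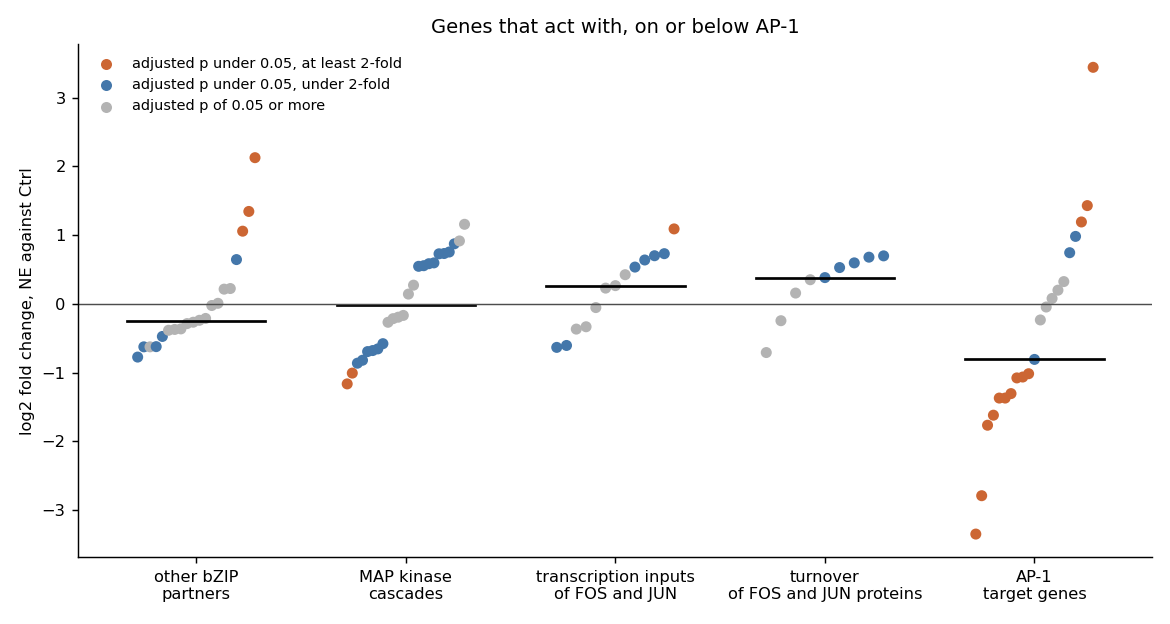
Log2 fold change of NE against Ctrl (y axis) of the tested genes of 5 lists, with 1 point per gene and a bar at the median of each list. Of the AP-1 target genes 10 are called below and 3 above the fold criterion, up to 3.44 for CXCL8, whereas the other lists stay mostly between -1 and 1.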

How the data were processed

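RNA was sequenced from 3 Ctrl and 3 NE libraries of NCI-H1299. Per the labels, the authors used a NEBNext Ultra RNA kit, aligned reads to hg38 with HISAT2 2.0.5 and counted them with featureCounts 1.5.0-p3. The deposited signal is named FPKM, but each value is a read count of a gene over the size factor of its library (0.955 to 1.09). The reads were recovered by dividing by the value of 1 read, and 100% of values were whole within 0.05. The group letter and the replicate number in a column's name gave its library, and 0 other columns of per-sample values were present. The analysis here used limma 3.58.1 (lmFit, eBayes with trend) in R 4.3.3 on log2(value + 1), a scale that understates changes of low genes, with Benjamini-Hochberg adjustment over 15013 genes. FPKM was recomputed from recovered reads and merged exons of GENCODE v44, which gave length and GC content for 25813 of 26025 genes. Named genes were the members, called genes of the other lists (at most 5 in each direction) and the 3 most abundant AP-1 targets and bZIP partners. A few genes and markers chosen this way were left out of the text. The members and lists were chosen with earlier results of these data known. Alternatives were other pseudocounts and filters, TMM and quantile scaling, voom, edgeR 4.0.16 and DESeq2 1.42.0 on recovered reads, a spline correction for GC content and length with 5 degrees of freedom, a replicate block, and each library left out. Scripts were checked on simulated counts that held no GC or length trend and no outlying library. That check does not show how often calls are false in these data. Reads carry no molecular identifiers, so counts limit the precision only from below. Same-numbered libraries did not deviate together, so the replicate numbers were not taken as pairs.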

Additional observations from a re-analysis of the deposited data

How the results depend on the processing

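Under 18 alternative settings, FOS, FOSL1, FOSL2, JUN and BATF3 kept their direction and their call, with log2 fold changes of 1.01 to 1.59, -2.85 to -1.89, 1.25 to 1.67, -2.14 to -1.61 and -1.87 to -1.21 and adjusted p of at most 0.0165, 0.00222, 0.00222, 0.000631 and 0.0305. MAFF kept its direction and lost its call with the GC and length correction (-0.90), also with the block added (-0.90). In both settings 3 members were then lower. With the adjusted p alone 3 were higher and 4 lower with the correction, and 2 and 4 with the block added. Shares of all tested genes by the adjusted p alone were not counted with the correction, so these counts of members have no background beside them. JUND turned to 0.15 with this correction, with and without the block, and ATF3 to 0.10 in both. JUNB ranged from -0.96 to -0.17 and FOSB from 0.09 to 0.64. Without single libraries ATF3 ranged from -0.25 to 0.09 and was above 0 without Ctrl replicate 3 (0.02) and without NE replicate 2 (0.09). With the replicate block 2 members were higher and 4 lower, as without it, and no call of a member changed. Same-numbered libraries deviated with correlations of -0.163, 0.080 and -0.151, so the numbers did not pair. Shares of reads in place of FPKM, which weight genes by length, gave differences of -53.3 points for FOSL1, 50 for FOSL2, -21.0 for JUN and 16.5 for JUND. Over all genes the correction left 502 higher and 347 lower, 445 and 336 with the block, and without Ctrl replicate 3 there were 1628 higher and 1507 lower. It left 1 bZIP partner higher, 0 transcription inputs higher and 0 MAP kinase genes lower. MAP kinase genes lower numbered 1 with a pseudocount of 10 and without Ctrl replicate 1, Ctrl replicate 2 or NE replicate 1, and 1 was higher without a filter, with voom and without Ctrl replicate 3, which also left 1 turnover gene lower. The cause of these shifts was not tested. The low members had few reads, 55 to 191 for FOS, 81 to 128 for FOSB and 37 to 212 for BATF3. Such counts set only a lower bound on the spread between libraries. How much of that spread came from depth was not tested. TMM and quantile scaling moved the median of all genes to -0.00 and -0.01.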
